A study of Mus musculus
Rattus norvegicus and Rattus norvegicus and Mus musculus with 18 samples.

Results

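The rat side of tumors that mouse cancer cells had formed in rats was compared between the inside and the edge of the same tumors. The cancer cells were 4T1, a single established mouse mammary carcinoma line that grows aggressively and spreads, placed in the mammary fat pads of SRG rats. SRG rats lack the recombination gene Rag2 and the cytokine receptor chain Il2rg, so the host has no mature T and B cells of its own and few natural killer cells. The labels enter the genotype as wildtype and the treatment as none, and give neither age nor sex. Tumors were taken 27 days after transplantation, cut open, and dissected into a necrotic core and a rim without necrosis. Rat3867, Rat3869, Rat3875, Rat3876 and Rat3877 each gave 1 core and 1 rim library, so 5 cores were set against 5 rims with each rat as its own control. Because the cancer cells were mouse and everything else was rat, a read of a rat gene comes from a host cell unless it was misplaced. Host cells here are fibroblasts, vessels, leukocytes and any mammary tissue left in the piece. The members are the rat genes with at least 1 CPM (reads scaled to a common library total) in at least 5 of the 10 libraries. That rule kept 13559 of the 14876 rat genes in the table, out of 32548 rat and mouse genes in all, and left 1317 rat genes untested.

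A solid tumor outgrows its blood supply, and its inside becomes short of oxygen and nutrients until cells die. Host cells take part on both sides of that boundary. Fibroblasts in the living edge lay down collagen and the proteins that organise it. Neutrophils and monocytes enter dying tissue, where the monocytes become macrophages that clear debris. Cells in low oxygen switch on glucose uptake and glycolysis through hypoxia-inducible factors.

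Cores had 14.3 ± 1.51% of their assigned reads on rat genes, and rims 22.7 ± 6.51% (SD, n = 5 each), or 3146720 to 4221679 reads per core and 4900651 to 9183248 per rim, so core levels rest on fewer reads. Levels are scaled within the rat reads of a library, so this difference in rat share does not enter them directly. It can still enter through misplaced mouse reads and the lower read depth of the cores. Scaling within the rat reads also sets what a level is compared with. A rise or fall is therefore relative to the other host RNA of the piece. In the library of 4T1 cells alone, 0.718% of reads fell on rat genes. At that rate misplaced mouse reads would make up 4.34% of a core's rat reads and 2.45% of a rim's, and over 10% of the core or rim reads of 2030 tested genes. Where it matters, the share of a gene's core reads that this rate would give is printed as its expected mouse share. The rims of Rat3876 and Rat3877 held more host fat and keratin RNA than most other rims, as given with those tissues, so many counts are also given without these 2 rats. In bulk tissue fewer cells of a type and less RNA per cell cannot be told apart, which holds for every result here.

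Host genes differed widely between core and rim. Of the 13559 tested, 5092 (37.6%) passed a limma adjusted p of 0.05, with 2373 (17.5%) higher in the core and 2719 (20.1%) lower. The large changes were mostly losses: 1634 genes (12.1%) fell at least 2-fold and 476 (3.51%) rose at least 2-fold. In 3578 genes (26.4%) all 5 cores lay on one side of all 5 rims, 1602 (11.8%) above and 1976 (14.6%) below, and 4721 of the called genes moved alike in all 5 rats. Without Rat3876 and Rat3877 together, 3351 genes were called, 1414 higher and 1937 lower. The balance turned with the genes kept: without those above 10% expected mouse share 2242 were higher and 2150 lower, and with at least 10 CPM 2252 and 1975. The share is taken over a gene's own rat reads, so a fall in the core raises it. Here and below, the 10% limit therefore removes falls more readily than rises, and counts under it cannot judge their balance. Across genes, cores correlated with each other at r = 0.932 to 0.959 and rims at 0.924 to 0.959, but cores with rims at 0.846 to 0.908. The median difference over all tested genes was -5.84e-05 on the log2 scale, so medians of gene groups below are read against 0. Counts of called members are read against the 17.5% higher and 20.1% lower of all tested genes. Counts of members whose cores and rims did not overlap are read against the 26.4% of all tested genes. In each rat more genes fell than rose by 2-fold before any test, with Rat3877 showing the fewest rises, at 673 against 1045 to 1147 in the others.

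Below, a level is in CPM, its ± is the SD over 5 libraries, and a difference is core minus rim on the log2 scale with its standard error. Values of single libraries follow the order Rat3867, Rat3869, Rat3875, Rat3876 and Rat3877.

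**Figure D1:**
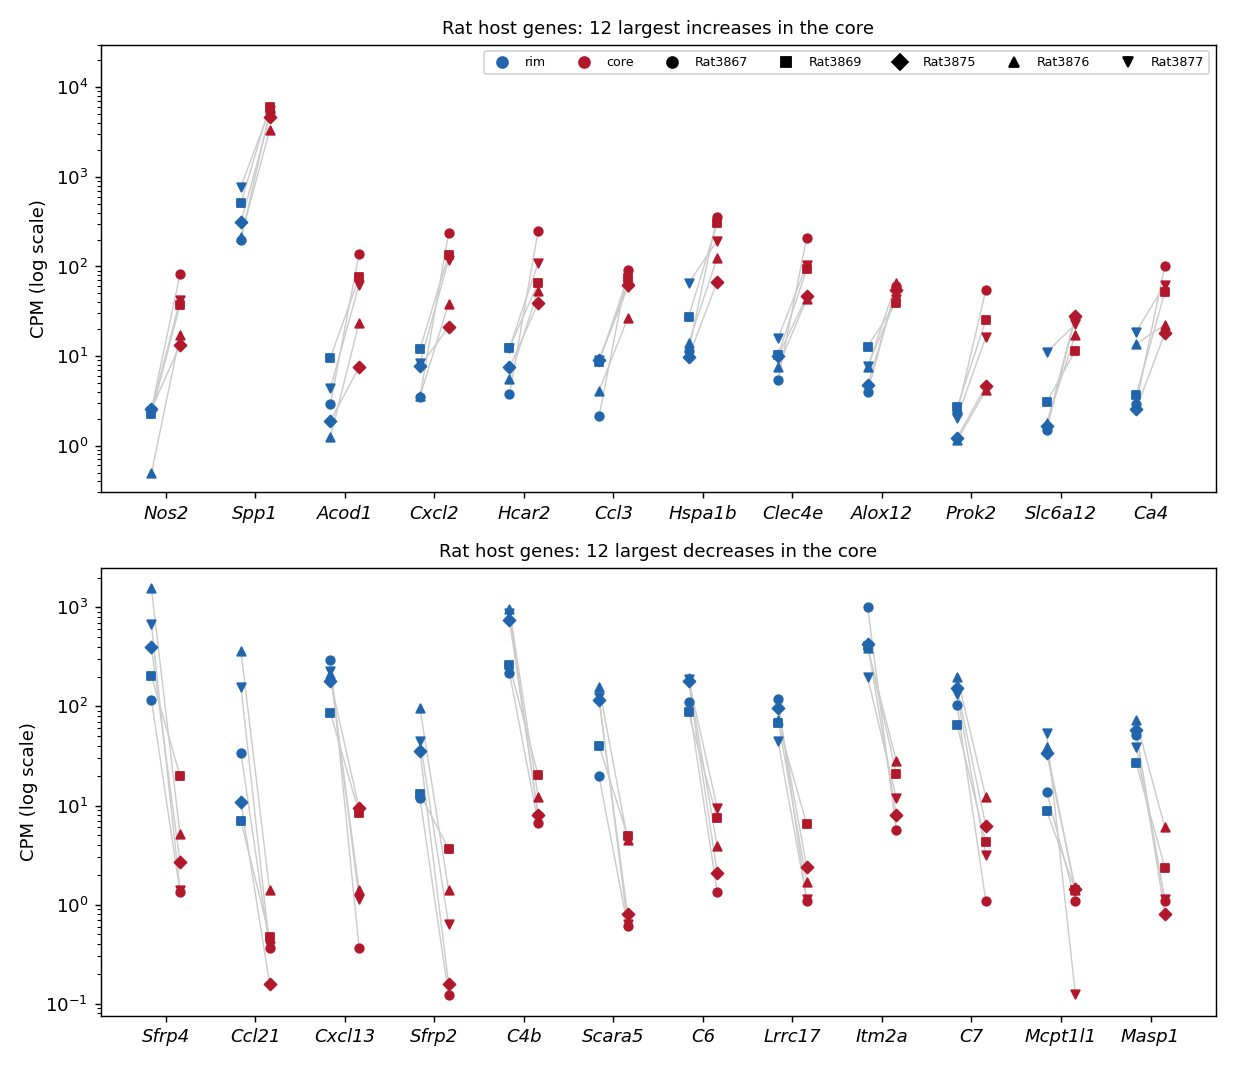
CPM in each library (log scale) of the 12 rat genes with the largest rises and the 12 with the largest falls in the core; blue marks are rims, red marks cores, the mark shape gives the rat and grey lines join the 2 regions of a rat. Spp1 rose to between 3311 and 6075 CPM in the 5 cores, while Sfrp4 and C4b fell to 20.3 CPM or less.

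Of the 12 genes that rose most in the core, 5 were from the list of activated macrophages and the others included chemokines and a chaperone. All lists were chosen with earlier results of these data known, so counts of their members describe these data and are no independent test. Nos2 (gene ENSRNOG00000057443), the inducible nitric oxide synthase, stood at 2.52, 2.28, 2.56, 0.49 and 2.43 CPM in the rims and 81.96, 37.3, 13.2, 17.1 and 42.2 in the cores. Every core exceeded every rim, and the core of Rat3867 was highest (4.13 ± 0.39, limma adjusted p = 0.000188). Spp1 (gene ENSRNOG00000043451), which encodes the secreted phosphoprotein osteopontin, gave 198, 512, 311, 211 and 779 CPM in the rims and 5242, 6075, 4609, 3311 and 5542 in the cores (3.80 ± 0.23, limma adjusted p = 7.01e-05). The lowest core lay far above the highest rim. Acod1, the enzyme that makes itaconate in activated macrophages, gave 2.92, 9.60, 1.89, 1.25 and 4.38 CPM in the rims and 138, 75.5, 7.47, 23.6 and 62.7 in the cores (3.72 ± 0.44). Here the core of Rat3875 was low enough to fall below the rim of Rat3869, so the groups overlapped although each rat rose.

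Cxcl2, a chemokine for neutrophils, gave 3.52, 11.97, 7.68, 3.54 and 8.27 CPM in the rims and 235, 135, 21.1, 38.5 and 119 in the cores (3.66 ± 0.52). Hcar2, the receptor for niacin and the ketone body hydroxybutyrate, gave 3.72, 12.4, 7.46, 5.61 and 12.4 CPM in the rims and 251, 65.4, 38.95, 53.9 and 109 in the cores (3.45 ± 0.48). Clec4e, known as Mincle, binds a ribonucleoprotein released by dead cells as well as mycobacterial lipid, and gave 5.34, 10.2, 9.90, 7.57 and 15.9 CPM in the rims and 209, 93.4, 46.3, 43.4 and 104 in the cores (3.19 ± 0.39). For each of these the core of Rat3867 was highest and those of Rat3875 and Rat3876 were the lowest pair, yet no core overlapped a rim. The chemokine Ccl3 rose 10.2-fold, from 6.57 ± 3.25 to 62.6 ± 23.8 CPM (3.35 ± 0.38). Prok2, a chemotactic peptide of neutrophils, rose 7.52-fold from a low level (1.88 ± 0.674 to 20.9 ± 20.6 CPM), with cores of Rat3875 and Rat3876 at 4.61 and 4.17 CPM and that of Rat3867 at 54.3.

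The other large rises were of varied kinds. The inducible chaperone Hspa1b gave 11.4, 27.4, 9.68, 13.9 and 64.9 CPM in the rims and 361, 305, 67.9, 124 and 194 in the cores (3.20 ± 0.39). It has a near-identical neighbouring copy, so its own level is uncertain. Alox12, a 12-lipoxygenase, was even between cores, at 60.1, 39.5, 54.2, 65.03 and 43.5 CPM against 3.93, 12.8, 4.79, 7.46 and 7.69 in the rims (2.94 ± 0.31). Slc6a12, a betaine and GABA transporter, rose from 3.81 ± 4.07 to 21.1 ± 6.81 CPM, and Ca4, a membrane-bound carbonic anhydrase, from 8.32 ± 7.45 to 51.4 ± 34.1 CPM. Ca4 was the one gene of the 12 besides Acod1 whose cores and rims overlapped, since the rim of Rat3877 held 18.8 CPM and the core of Rat3875 18.0.

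The 12 genes that fell most included 4 complement components, 2 secreted Wnt antagonists and 2 chemokines of lymphoid and lymphatic tissue. Sfrp4 (gene ENSRNOG00000054957), a secreted Wnt antagonist, gave 117, 203, 401, 1559 and 681 CPM in the rims and 1.34, 20.01, 2.70, 5.10 and 1.39 in the cores (-6.84 ± 0.68, limma adjusted p = 0.000224). The rims themselves spanned over an order of magnitude, with Rat3876 highest. The expected mouse share of its core reads was 98.3%, so the core level cannot be told apart from misplaced mouse reads. Cxcl13, a chemokine that attracts B cells and is made by lymphoid stroma, gave 294, 86.8, 182, 212 and 227 CPM in the rims and 0.364, 8.35, 9.38, 1.39 and 1.14 in the cores (-6.44 ± 0.81). Ccl21, the chemokine of lymphatic endothelium that guides dendritic cells, gave 34.1, 7.03, 10.8, 366 and 158 CPM in the rims and 0.364, 0.473, 0.159, 1.39 and 0.378 in the cores (-6.66 ± 0.63). Its few core reads were below the number of mouse reads expected there (expected mouse share 419%). Rims of Rat3876 and Rat3877 were highest for Sfrp4, Ccl21 and Sfrp2 alike, the last giving 11.98, 13.2, 35.3, 95.8 and 45.1 CPM in the rims and 0.121, 3.62, 0.159, 1.39 and 0.631 in the cores (-5.71 ± 0.74).

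C4b, a component of the classical pathway, gave 218, 259.8, 737, 959 and 873 CPM in the rims and 6.68, 20.3, 8.11, 12.2 and 7.69 in the cores (-5.67 ± 0.41, expected mouse share 61.5%). A near-identical copy makes its level uncertain. C6 and C7, parts of the membrane attack complex, fell from 153 ± 49.6 to 4.83 ± 3.49 CPM and from 131 ± 51.2 to 5.38 ± 4.24 CPM (-5.28 and -4.91). Masp1, a protease that starts the lectin pathway, fell from 49.3 ± 17.4 to 2.28 ± 2.18 CPM (-4.78, expected mouse share 81.5%). For all 4 no core reached the lowest rim.

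The remaining falls were in stromal and mast cell genes. Scara5, a ferritin receptor of fibroblasts, gave 19.6, 40.3, 117, 158 and 125 CPM in the rims and 0.607, 4.88, 0.795, 4.48 and 0.631 in the cores (-5.60 ± 0.60, expected mouse share 73.4%). Lrrc17, a secreted leucine-rich repeat protein, fell from 80.1 ± 28.2 to 2.55 ± 2.25 CPM, and the membrane protein gene Itm2a from 487 ± 311 to 15 ± 9.41 CPM (-5.24 and -5.06). For Itm2a the rim of Rat3867 was highest, unlike Scara5, where it was lowest. Mcpt1l1, a chymase-type protease of mast cells, gave 13.8, 8.81, 34.2, 38.7 and 54.2 CPM in the rims and 1.09, 1.42, 1.43, 1.39 and 0.126 in the cores (-4.88 ± 0.76). Its core reads were fewer than the mouse reads expected (expected mouse share 252%).

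The genes with the most reads changed places. CPM is not divided by transcript length, so these are ranks of reads, not of transcripts. In the rim the 10 genes with the most reads were Col1a1, Col3a1, Sparc, Mt-co1, Fn1, Postn, Apoe, Actb, Eef1a1 and Cd74. In the core they were Mt-co1, Lyz2, Actb, Eef1a1, Mt-co3, Spp1, Cd74, Vim, Psap and Gpnmb. The matrix genes Col1a1, Col3a1, Sparc, Fn1 and Postn left the first 10, and the myeloid and lysosomal genes Lyz2, Spp1, Psap and Gpnmb entered. Lyz2, the lysozyme of macrophages and neutrophils, gave 1443, 2753, 2837, 2584 and 3045 CPM in the rims and 8118, 6426, 5291, 4823 and 7692 in the cores (1.37 ± 0.24), with every core above every rim. Gpnmb, a lysosomal glycoprotein of lipid-laden macrophages, gave 886, 1229, 905, 531 and 1252 CPM in the rims and 5368, 4211, 3845, 3034 and 5527 in the cores (2.22 ± 0.15). Actb (0.31), Eef1a1 (0.21), Cd74 (0.23) and Vim (0.20) were not called. Mt-co1 (0.52 ± 0.17), Mt-co3 (0.42 ± 0.14) and Psap (0.45 ± 0.15) rose, but each lost its call without Rat3867, Rat3869, Rat3876 or Rat3877, and the first 2 also without Rat3875 (limma adjusted p up to 0.279).

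**Figure D2:**
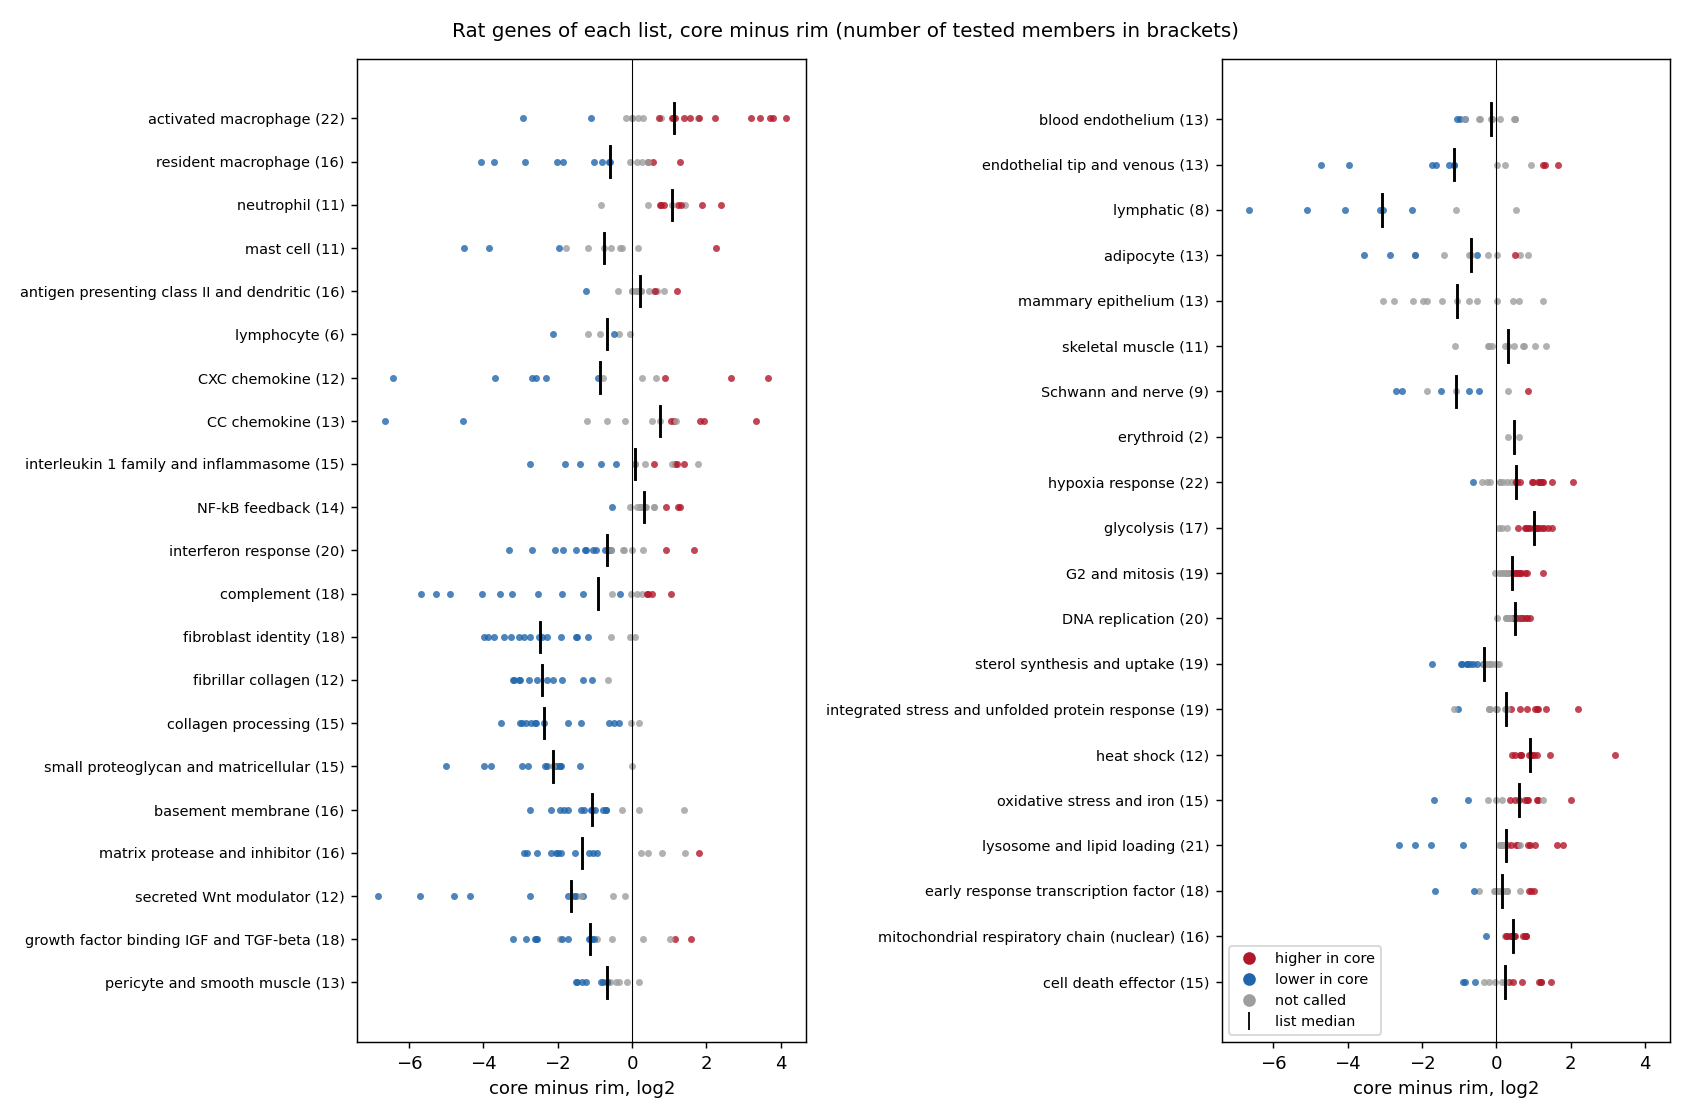
Core minus rim difference (log2) of each tested rat gene in 41 gene lists; red dots are genes called higher in the core, blue dots called lower, grey dots not called, and the black bar is the list's median. Fibroblast and collagen lists lie left of 0 with medians near -2.4, while glycolysis (1.02), heat shock (0.90) and activated macrophage genes (1.12) lie right of it.

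Of 22 tested genes of activated macrophages 13 rose, 2 fell and 7 were not called (median 1.12), and for 10 of them core and rim did not overlap. Besides Nos2, Spp1, Acod1, Hcar2, Gpnmb and Clec4e, the amplifying receptor Trem1 rose from 34.4 ± 11.8 to 99.7 ± 30.7 CPM and the macrophage elastase Mmp12 from 309.8 ± 80.9 to 1057 ± 184 CPM (1.55 and 1.80). Against them, Arg1, the arginase that competes with Nos2 for arginine, gave 245, 194, 152, 132 and 169 CPM in the rims and 89.7, 118, 50.7, 50.2 and 129.8 in the cores (-1.11 ± 0.18). The cytokine Il6 also fell, from 8.15 ± 4.17 to 1.02 ± 0.304 CPM (-2.93 ± 0.36). For both, every core lay below every rim. Vegfa (-0.18), Ptgs2 (0.77) and Il1a (1.78) were among those not called.

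Of 16 genes of resident macrophages 9 fell, 3 rose and 4 were not called (median -0.61). Cd163, the scavenger receptor for haemoglobin bound to haptoglobin, gave 2167, 864, 2783, 1145 and 1518 CPM in the rims and 60.8, 92.8, 58.03, 194 and 372 in the cores (-3.71 ± 0.50). The lowest rim lay above the highest core, that of Rat3877. Ms4a7, a tetraspan protein of macrophages, fell from 37.4 ± 17.01 to 5.16 ± 2.32 CPM and Lyve1, a hyaluronan receptor of some macrophages and of lymphatic endothelium, from 312 ± 186 to 17.4 ± 7.08 CPM (-2.89 and -4.06). F13a1, the A chain of coagulation factor XIII, rose instead, from 174, 399, 267, 259 and 598 CPM in the rims to 795, 698, 1045, 574 and 778 in the cores (1.30 ± 0.25). C1qb and Csf1r rose by 0.42 and 0.57, but neither was called without Rat3867, Rat3876 or Rat3877, nor C1qb without Rat3869 (limma adjusted p up to 0.186), and without Rat3876 and Rat3877 together 1 member rose. The summed level of the 16 genes overlapped between the regions, at 9030 to 13700 CPM in the rims and 8610 to 11000 in the cores, while that of the activated list was 2850 to 5740 and 10300 to 17000 CPM.

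Neutrophil genes rose, 7 of 11 tested, and 4 were not called (median 1.08). S100a9, a subunit of the calcium-binding alarmin calprotectin, gave 31.7, 53.1, 47.3, 67.3 and 54.6 CPM in the rims and 686, 569, 80.3, 118 and 306 in the cores (2.38 ± 0.50), and its partner S100a8 22.9, 39.5, 28.8, 41.6 and 33.97 and 331, 249.7, 42.8, 62.9 and 117 (1.89 ± 0.44). Rims were alike, but cores split: Rat3867, Rat3869 and Rat3877 were high and Rat3875 and Rat3876 were nearest to their rims. The oxidase subunit Ncf1 (0.76) and the chemokine receptor Cxcr2 (1.23) rose as well. Mmp9 (0.43) and Lcn2 (-0.83) were not called, and the granule genes Mpo, Elane and Camp were below the filter.

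Mast cell genes were mixed: 3 of 11 fell, 1 rose and 7 were not called (median -0.75). The share called was near the 37.6% of all tested genes. Hdc, which makes histamine, gave 236, 57.5, 68.9, 226 and 139.9 CPM in the rims and 5.22, 10.6, 8.11, 12.8 and 7.95 in the cores (-3.86 ± 0.37), and the carboxypeptidase Cpa3 fell from 40.3 ± 28.1 to 10.3 ± 7.45 CPM. The chymase Cma1 fell from 8.52 ± 5.49 to 0.458 ± 0.459 CPM. Expected mouse shares were 14.6% for Hdc and 220.1% for Cma1, and without genes above 10% the count of falls was 1. Hpgds, a prostaglandin D synthase that macrophages also express, rose from 0.705, 1.68, 3.45, 4.08 and 2.24 to 9.84, 16.9, 6.84, 9.73 and 8.45 CPM (2.26 ± 0.45). The median of the list was -2.93 and -2.22 in Rat3876 and Rat3877 but 0.751 and 0.987 in Rat3869 and Rat3875, and without Rat3876 and Rat3877 2 rose, 2 fell and the median was 0.457.

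Of 16 genes of class II presentation and dendritic cells 2 rose, 1 fell and 13 were not called (median 0.22), fewer than the 37.6% called over all tested genes. The integrin chain Itgax, also known as CD11c, gave 265, 337, 261, 183 and 269 CPM in the rims and 723, 564, 558, 564 and 569 in the cores (1.20 ± 0.13), and the transcription factor Irf8 rose by 0.63. Zbtb46, a factor of conventional dendritic cells, fell (-1.24, expected mouse share 18.3%) and was not called without Rat3867 or Rat3877 (limma adjusted p up to 0.0576). The count of falls was 2 without Rat3876 and Rat3877 and 0 without genes above 10% expected mouse share. The invariant chain Cd74 stood at 4024 ± 914 CPM in the rims and 4684 ± 845 in the cores. Of 6 lymphocyte genes tested, 2 fell and 4 were not called, a share called near the 37.6% of all tested genes. Another 12 of the list were not tested here. Cd8a fell from 37.8, 5.84, 19.5, 16.5 and 13.3 to 1.82, 2.36, 4.29, 7.57 and 4.16 CPM (-2.13 ± 0.45) with overlapping groups. Il2rg reads were present, at 17.8 ± 1.74 and 12.9 ± 3.61 CPM, and its call (-0.50) ended without any one rat but Rat3877 (limma adjusted p up to 0.107). It also ended without the pairing by rat, by limma-voom and DESeq2, with no filter and with a prior of 3 reads (adjusted p up to 0.124 by DESeq2), each leaving 1 lymphocyte gene that fell. As the deleted part of Il2rg is not given, its reads check nothing about the genotype.

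Of 12 CXC chemokines 3 rose, 6 fell and 3 were not called (median -0.86). Besides Cxcl2, the neutrophil chemokine Cxcl3 rose from 0.906, 3.46, 2.56, 0.599 and 3.41 to 19.5, 27.3, 3.02, 5.72 and 18.5 CPM (2.67 ± 0.53), and the membrane-bound Cxcl16 from 196 ± 42.9 to 362 ± 86.8 CPM (0.87). Both lost their call without Rat3876 and Rat3877 (limma adjusted p = 0.0505 for each). Cxcl6 gave 8.96, 1.68, 4.79, 2.01 and 2.24 CPM in the rims and 0.607, 0.158, 0.159, 0.463 and 0.126 in the cores, where it had 3 reads in all. The interferon-induced Cxcl10 fell from 20.8, 18.3, 5.23, 16.7 and 29.9 to 4.49, 3.31, 1.11, 3.86 and 5.17 CPM (-2.31 ± 0.20), and the stromal chemokine Cxcl12 from 86.1 ± 60.7 to 12.4 ± 6.24 CPM (-2.69).

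Of 13 CC chemokines 5 rose, 2 fell and 6 were not called (median 0.76). Ccl2, the monocyte attractant, rose from 69.8, 152, 79.1, 94.8 and 227 to 344, 265, 193, 234 and 215 CPM (1.12 ± 0.28, limma adjusted p = 0.0136), in 4 of 5 rats, with Rat3877 lower in its core. Ccl4 rose with Ccl3, from 13.1 ± 7.14 to 46 ± 16.3 CPM (1.92). Ccl11, the eosinophil chemokine eotaxin, fell with very uneven rims, from 1.11, 21.5, 70.4, 6.04 and 4.19 to 0.121, 1.73, 0.477, 0.463 and 0.126 CPM (-4.56 ± 0.62). The groups overlapped, since the rim of Rat3867 lay below the core of Rat3869. Without genes above 10% expected mouse share 1 member fell, and without Rat3867 4 rose and 4 fell.

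Of 15 genes of the interleukin 1 family and inflammasomes 4 rose, 5 fell and 6 were not called (median 0.07), and for 7 core and rim did not overlap. Il33, the alarmin stored in nuclei of stromal and endothelial cells, gave 913, 652, 464, 697 and 590.2 CPM in the rims and 59.4, 137, 87.3, 124 and 96.98 in the cores (-2.74 ± 0.22, limma adjusted p = 0.000108). Its receptor Il1rl1 fell from 255 ± 67.2 to 95.6 ± 20.97 CPM (-1.40) and the signalling receptor Il1r1 from 120.5 ± 25.2 to 34.5 ± 7.49 CPM (-1.81). Il1b rose from 31.3, 30.98, 25.04, 23.1 and 44.1 to 178, 98.8, 29.1, 54.5 and 46.5 CPM (1.14 ± 0.33), led by Rat3867 and with Rat3875 and Rat3877 almost level. Il1b lost its call without Rat3867, Rat3869 or Rat3876 (limma adjusted p up to 0.0785). The natural antagonist Il1rn rose without overlap, from 55.9, 66.6, 67.3, 48.3 and 78.6 to 229.9, 222, 121, 104 and 180.2 CPM (1.39 ± 0.17), and so did Il18bp, the decoy of interleukin 18 (1.21). The inflammasome adaptor Pycard rose (0.59 ± 0.11) but was not called without Rat3876 and Rat3877 (limma adjusted p = 0.0579).

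Of 14 genes that NF-kB induces to restrain itself 3 rose, 1 fell and 10 were not called (median 0.31). This is a smaller share called than the 37.6% of all tested genes. Nfkbia, the inhibitor IkB-alpha, gave 50.2, 80.3, 92.3, 72.7 and 106 CPM in the rims and 403, 256, 126, 77.1 and 201 in the cores (1.23 ± 0.37), with Rat3876 almost level, and lost its call without Rat3869 or Rat3877 (limma adjusted p up to 0.0856). The subunit Rel rose without overlap (1.29), and Birc3, an inhibitor of apoptosis, with overlap (0.91). Bcl3, an atypical inhibitor, fell (-0.53) and was not called without Rat3867, Rat3875, Rat3876 or Rat3877 (limma adjusted p up to 0.28). Without Rat3876 and Rat3877 together 5 members rose.

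Interferon response genes fell: 13 of 20, with 2 higher and 5 not called (median -0.69). Rsad2, the antiviral enzyme viperin, gave 25.3, 18.7, 6.34, 19.9 and 32.6 CPM in the rims and 2.55, 1.10, 1.11, 1.39 and 4.67 in the cores (-3.31 ± 0.29, limma adjusted p = 0.000142). Mx2, an interferon-induced GTPase, fell from 218, 184, 79.3, 151 and 457 to 26.6, 26.9, 13.2, 58.9 and 35.9 CPM (-2.68 ± 0.27), and Irf7, the factor that amplifies interferon production, from 145, 64.2, 61.5, 74.5 and 262 to 27.1, 29.1, 14.5, 23.6 and 30.9 CPM (-2.08 ± 0.24). For these 3 no core reached a rim, and the rim of Rat3877 was highest. Ifit3 (0.91) and Ifit1 (1.66) rose instead. Ifit1 was not called without Rat3867, Rat3869, Rat3876 or Rat3877 (limma adjusted p up to 0.221), and Ifit3 was no longer called when rats were not paired (limma adjusted p = 0.145). With Rat3876 and Rat3877 left out, 8 members fell.

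Of 18 complement genes 10 fell, 4 rose and 4 were not called (median -0.93), and for 12 core and rim did not overlap. The proteases C1r (-2.52) and C1s (-4.03) and their inhibitor Serping1 (-3.22) fell with C4b, C6 and C7. The anaphylatoxin receptor C5ar1 rose from 148, 156, 149, 115 and 187 to 407, 383, 233, 229.9980 and 320.5 CPM (1.04 ± 0.13). Properdin (Cfp, 0.39) and the membrane attack inhibitor Cd59 (0.54) rose, and C1qb as given above. Of the 18, 6 had an expected mouse share above 10% in the core or rim, and without them 4 of 12 fell and 4 rose (median 0.0571). Without Rat3876, or without it and Rat3877, 2 members rose, with Cfp among those not called (limma adjusted p up to 0.0912).

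Most fibroblast genes were lower in the core. Of 18 genes of fibroblast identity 15 fell and 3 were not called (median -2.47), and the list's median was between -1.72 and -2.78 in the 5 rats. Pdgfra, the growth factor receptor that marks fibroblasts, gave 520.2, 242, 501, 343 and 227 CPM in the rims and 15.7, 39.9, 27.2, 38.8 and 18.8 in the cores (-3.72 ± 0.30, limma adjusted p = 0.000108). Lum, the collagen-binding proteoglycan lumican, gave 1295, 1131, 2168, 1285 and 815 CPM in the rims and 29.7, 164, 108, 195 and 33.2 in the cores (-3.98 ± 0.38). Rims exceeded cores by wide margins for both. Dcn, decorin, had the highest mean CPM of the list and fell from 1830.05, 1716, 3499, 2142 and 1852 to 335, 844, 678, 619 and 471 CPM (-1.92 ± 0.20). The peptidase Dpp4 fell from 37.4 ± 22.2 to 4.06 ± 3.22 CPM and the transcription factor Prrx1 from 91.5 ± 18.8 to 18.2 ± 7.79 CPM. S100a4 (0.07), Meox1 (-0.06) and Gsn (-0.57) were not called. By the same-symbol rate, the rat reads that the 4T1 cells alone gave per mouse read of Pdgfra, the expected mouse share of Pdgfra in the core would be 68.5%, against 6.96% by the total rate.

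Of 12 genes of fibrillar and associated collagens 11 fell, with Col12a1 (-0.64) not called (median -2.42). Col1a1, the main chain of type I collagen, gave 28214, 22407, 25202, 18079.5 and 12737 CPM in the rims and 1793, 4780.4, 6525, 5028 and 1922 in the cores (-2.55 ± 0.31). Col3a1, of type III collagen, gave 19076, 16487, 26227, 20201 and 15681 and 1055, 3715, 3708, 3129.9 and 1467 (-3.05 ± 0.28). Rat3867 had the highest Col1a1 rim and the lowest Col1a1 core. Col5a1 (-3.21) and Col5a3 (-3.17), chains of the type V collagen that seeds fibres, fell most. The summed level of the list was 39800 to 69200 CPM in the rims and 4550 to 15200 in the cores.

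Of 15 genes of collagen processing 13 fell and 2 were not called (median -2.37). Serpinh1, the collagen chaperone HSP47, gave 1734, 1042, 912, 2041 and 1087 CPM in the rims and 199.99, 288, 144, 282 and 199 in the cores (-2.59 ± 0.17, limma adjusted p = 7.01e-05). Lox, the lysyl oxidase that crosslinks collagen, gave 792, 973, 946, 710.2 and 741 and 50.9, 155, 226, 138 and 46.8 (-3.005 ± 0.29), and Bmp1, which trims procollagen, 756, 697, 928, 486 and 457 and 62.3, 114, 99.7, 98.4 and 53.9 (-2.97 ± 0.17). None of these groups overlapped. Loxl4 fell most (-3.52). The hypoxia-induced modifiers P4ha1 (0.17) and Plod2 (-0.04) were the 2 not called.

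Of 15 small proteoglycans and matricellular proteins 13 fell and 2, Thbs1 (-0.01) and Comp (-2.14), were not called (median -2.14). Sparc, a collagen-binding protein, gave 9852, 9878, 11356, 9179 and 6536 CPM in the rims and 1500.2, 3380.2, 2685, 2402 and 1729 in the cores (-2.04 ± 0.18), and Postn, periostin, 7070.03, 8061, 10306, 3614 and 3451 and 238, 1429.6, 1323, 1772 and 309 (-2.97 ± 0.45). Cores of Rat3867 and Rat3877 held less Postn than the other 3. Thbs4 fell most, from 5.34, 6.04, 9.24, 82.6 and 19.8 to 0.121, 0.788, 1.11, 1.08 and 0.126 CPM (-4.999), with the rim of Rat3876 far above the others, and Fmod, fibromodulin, fell too (-3.80). Fn1, fibronectin, fell from 6673 ± 1269 to 2546 ± 607 CPM (-1.40). Without genes above 10% by either rate of mouse share, 8 members fell.

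Of 16 basement membrane genes 13 fell and 3 were not called (median -1.08). Lama2 fell from 115 ± 49.9 to 17.7 ± 8.34 CPM (-2.76), Lamb1 from 893 ± 213 to 198 ± 43.7 (-2.17) and Lama4 from 493 ± 114 to 128 ± 16.9 (-1.93). These are laminin chains of muscle, general and vascular basement membranes. Col4a1, with the most reads of the list, fell from 2328, 1296, 1875, 1580.3 and 1447 to 1564, 871, 670.4, 847 and 1477 CPM (-0.70 ± 0.19), in 4 of 5 rats, and lost its call without Rat3875 or Rat3876 (limma adjusted p up to 0.065). Of 16 matrix proteases and inhibitors 11 fell, 1 rose and 4 were not called (median -1.35). Mmp14, the membrane-bound collagenase, gave 2716, 1995, 3962, 1094 and 1001 CPM in the rims and 577, 447, 422, 544 and 389 in the cores (-1.999 ± 0.28). Mmp2, which Mmp14 activates, fell from 1555 ± 664 to 218 ± 76.2 CPM (-2.82), the inhibitor Timp1 from 649 ± 106 to 116 ± 46.7 (-2.57) and Mmp3 from 11.5 ± 5.81 to 2.002 ± 1.998 (-2.91). Mmp12, the macrophage gene, was the one that rose, and 2 were called higher without Rat3875 or Rat3876, without the pairing by rat, by limma-voom or DESeq2, and with a prior of 3 reads.

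Secreted Wnt modulators fell, 9 of 12, and 3 were not called (median -1.64). Sfrp1 fell with Sfrp2 and Sfrp4, from 157, 142, 248, 374 and 269 to 2.79, 25.7, 23.1, 15.9 and 5.93 CPM (-4.35 ± 0.44). The antagonist Dkk3 fell least of those named, from 142 ± 30.2 to 53.3 ± 20.8 CPM (-1.50). The ligand Wnt2 gave 1.91, 3.27, 6.12, 6.48 and 3.99 CPM in the rims and no read in any of the 5 cores. Against a floor of 3 reads per library its rim level was at least 5.05-fold higher. The list's median was the same with Wnt2 at this bound. As 0.5 read is built into each deposited value, cores without a read carry 0.121 to 0.159 CPM. Of the 12 genes, 6 had an expected mouse share above 10%, and 4 of the other 6 fell.

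Of 18 genes of insulin-like growth factor and TGF-beta binding 11 fell, 2 rose and 5 were not called (median -1.15). Igfbp4 gave 1460.4, 1326, 2642, 2533 and 1737 CPM in the rims and 197, 401, 378, 354 and 242 in the cores (-2.62 ± 0.18, limma adjusted p = 7.01e-05), and Igfbp5 fell from 704 ± 432 to 69.5 ± 16.8 CPM (-3.20, expected mouse share 26.5%). Both bind the growth factor that Igf1 encodes. Igf1 itself rose without overlap, from 112, 175, 202, 206 and 161 to 338, 419, 439, 296 and 395 CPM (1.16 ± 0.14). Igfbp3 rose from 292, 450.2, 438, 157 and 147 to 1275, 498, 549.6, 624 and 1508 CPM (1.59 ± 0.42), with high cores in Rat3867 and Rat3877, and was not called without Rat3867 or Rat3876 (limma adjusted p up to 0.133). Igf2, the fetal growth factor, fell (-2.85) to fewer core reads than the mouse reads expected (expected mouse share 110.04%). Without genes above 10% by the total rate 7 of 12 members fell and 3 rose, and by either rate 3 of 7 fell and 4 rose (median 0.303).

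**Figure D3:**
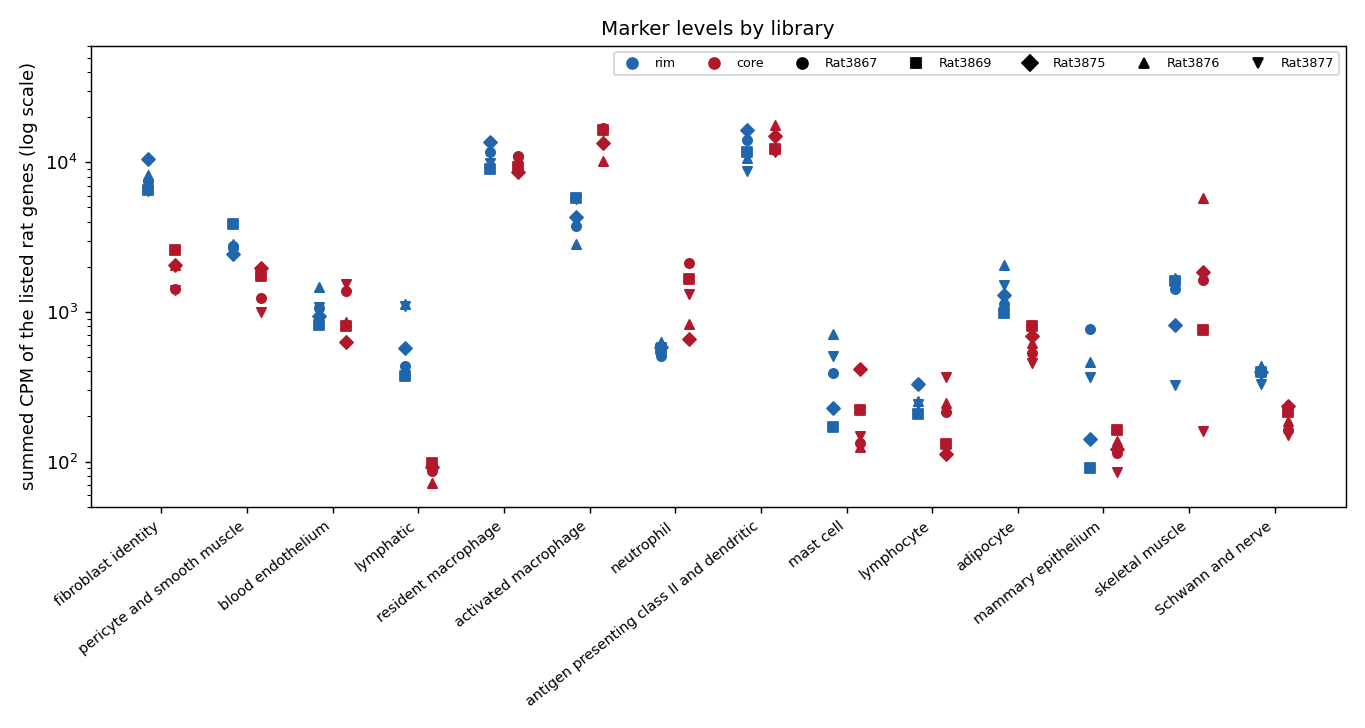
Summed CPM (log scale) of the rat genes of 14 cell type lists in each library, rims in blue and cores in red, with mark shapes for the 5 rats. Fibroblast sums are 6470 to 10600 CPM in rims and 1400 to 2580 in cores without overlap, while blood endothelial sums overlap. Lymphatic sums are 375 to 1140 and 72.0 to 98.0 CPM, and they include Lyve1 and Pdpn, which macrophages and fibroblasts share.

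Of 13 genes of blood endothelium 3 fell and 10 were not called (median -0.14), while without Rat3876 2 were called higher and limma-voom called 1 higher and 4 lower. Over all tested genes a larger share was called in the main fit (37.6%). Plvap, of the diaphragms of fenestrated endothelium, gave 117, 100.4, 139.9, 229 and 147 CPM in the rims and 71.5, 74.8, 47.5, 70.6 and 78.8 in the cores (-1.06 ± 0.19). The angiopoietin receptor Tek (-0.84) and the sialomucin Emcn (-0.99) also fell. The growth factor receptors Kdr, at 52.3 ± 6.91 and 48.5 ± 6.71 CPM, and Flt1, at 77.7 ± 5.78 and 115 ± 42.5 CPM, were not called. The junction gene Cdh5 gave 127, 78.7, 91.8, 139 and 107 CPM in the rims and 278, 101, 57.1, 138 and 309.9 in the cores (0.47, limma adjusted p = 0.232). Cores of Rat3867 and Rat3877 stood above all rims and the core of Rat3875 below them.

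Genes of vessel specialisation moved both ways: of 13, 3 rose, 7 fell and 3 were not called (median -1.14). The 3 that rose are known from sprouting tips. Cxcr4, which leukocytes also carry, gave 90.7, 108, 94.04, 59.1 and 125 CPM in the rims and 342, 254, 261, 236 and 415 in the cores (1.67 ± 0.12, limma adjusted p = 8.21e-05). The peptide Apln rose from 16.01, 24.4, 14.6, 11.7 and 14.5 to 65.9, 38.6, 17.97, 32.3 and 49.6 CPM (1.25 ± 0.26) and the Notch ligand Dll4 from 19.03, 21.1, 13.9, 14.9 and 14.9 to 63.7, 34.2, 18.3, 29.2 and 100.01 CPM (1.31 ± 0.31). Neither Apln nor Dll4 was called without Rat3876 and Rat3877 (limma adjusted p = 0.0732 and 0.0519). Adhesion molecules of venous endothelium that capture leukocytes fell: Sele from 33.9, 8.21, 17.7, 88.3 and 91.6 to 1.09, 3.94, 1.11, 0.772 and 0.883 CPM (-4.71 ± 0.76), Vcam1 from 19.5 ± 12.9 to 1.47 ± 1.23 CPM (-3.96) and Selp (-1.73). Their expected mouse shares were 30.6%, 133% and 17.2%, and without genes above 10%, 2 of 8 fell and 3 rose (median 0.574). With at least 10 CPM 4 of 10 fell and 3 rose (median 0.118). Selp was not called without Rat3876 and Rat3877 (limma adjusted p = 0.146).

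Lymphatic genes fell, 6 of 8, and 2 were not called (median -3.09). Pdpn, podoplanin, which fibroblasts share, gave 265, 145, 197, 257 and 242 CPM in the rims and 17.6, 31.99, 36.4, 32.6 and 17.8 in the cores (-3.05 ± 0.25). Prox1, the master regulator of lymphatic identity, fell from 2.72, 1.88, 3.45, 10.6 and 6.13 to 0.364, 0.788, 0.795, 2.93 and 0.631 CPM (-2.28 ± 0.43), overlapping because the core of Rat3876 held 2.93 CPM. Reln, the secreted glycoprotein reelin, gave 4.53, 1.88, 3.67, 32.3 and 24.6 CPM in the rims and 0.463 or less in the cores, where it had 2 reads in all. Rims of Rat3876 and Rat3877 were highest for both. Of the 8 genes, 4 had an expected mouse share above 10%, and 3 of the other 4 fell. Without Rat3876 1 lymphatic gene, the receptor Flt4, was called higher. With Rat3877 left out as well, 4 lymphatic genes fell and 1 rose (median -2.47). Among pericyte and smooth muscle genes, 13 were tested, of which 7 fell and 6 did not pass (median -0.66). Acta2, smooth muscle actin, which activated fibroblasts also express, gave 837, 1201, 652, 793 and 675 CPM in the rims and 169, 387, 546, 537 and 171 in the cores (-1.35 ± 0.29). Pdgfrb fell from 479 ± 144 to 166 ± 36.4 CPM (-1.51) and the pericyte receptor Notch3 from 108 ± 19.04 to 40.1 ± 14.3 (-1.49), while Cspg4 (0.19) and Myh11 (-0.42) were not called.

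Of 13 adipocyte genes 4 fell, 1 rose and 8 were not called (median -0.69). This share called was near the 37.6% of all tested genes. Lpl, lipoprotein lipase, which macrophages also make, gave 563, 467, 698, 434 and 603 CPM in the rims and 63.7, 208, 182, 171 and 55.9 in the cores (-2.20 ± 0.33), and Cfd, adipsin, fell from 334 ± 256 to 24.1 ± 6.74 CPM (expected mouse share 82.7%). Plin4 fell (-2.86) and Scd rose (0.51), and neither was called without Rat3875, Rat3876 or Rat3877, nor Plin4 without Rat3869 (limma adjusted p up to 0.2). Without genes above 10% expected mouse share 1 of the list fell, and by either rate the median of the 4 genes kept was 0.193. Without Rat3877 2 fell, and limma-voom called 7 lower. The adipokine Adipoq, not called, gave 5.94, 3.07, 2.34, 117 and 32.6 CPM in the rims, highest in Rat3876 and Rat3877, and 4.49, 1.10, 3.97, 4.48 and 0.883 in the cores. The summed level of the list was 979 to 1305 CPM in the rims of Rat3867, Rat3869 and Rat3875, 2069 and 1519 in those of Rat3876 and Rat3877, and 458 to 808 in the cores.

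Of 13 mammary epithelial genes limma called 0 (median -1.05), with 2 lower at an unadjusted p of 0.05. The luminal keratin Krt8 gave 2.72, 6.04, 4.34, 54.04 and 58.1 CPM in the rims, high in Rat3876 and Rat3877, and 8.38, 18.4, 4.93, 3.55 and 6.68 in the cores, while Krt14, a keratin of basal cells, gave 208, 0.891, 0.556, 31.9 and 21.1 CPM in the rims, with Rat3867 far ahead. Limma-voom called 6 lower, edgeR 1 and DESeq2 2. Without Rat3876 and Rat3877, 3 were called higher and 1 lower, and without Rat3869 5 lower. The median was -3.93 in Rat3876 and -2.64 in Rat3877 but 2.46 in Rat3869. The summed level was 771 CPM in the rim of Rat3867, 461 and 368 in those of Rat3876 and Rat3877, 90.6 and 141 in those of Rat3869 and Rat3875, and 84.6 to 161 in the cores. The part of these tissues in the other results was not tested beyond the counts without Rat3876 and Rat3877.

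Of 11 skeletal muscle genes limma called 0 (median 0.30), with 1 higher at an unadjusted p of 0.05, and limma-voom called 2 higher, edgeR 1 and DESeq2 1. All 11 were above the 10% limit of expected mouse share, without Rat3869 3 were called higher, and without Rat3876 and Rat3877 the median was -0.229. Of 9 Schwann and nerve genes 5 fell, 1 rose and 3 were not called (median -1.09). The adhesion molecule Ncam1 fell from 198, 201, 143, 107 and 77.6 to 10.6, 25.4, 39.9, 38.2 and 9.46 CPM (-2.72 ± 0.35), and the periaxin gene Prx from 10 ± 2.50 to 3.82 ± 2.08 CPM. Pmp22 (-0.75) fell and Mbp (0.85) rose, and neither was called without Rat3876 and Rat3877, when 2 members fell, nor Pmp22 without Rat3877 (limma adjusted p up to 0.115). S100b fell (-2.54) and sat at the threshold (limma adjusted p = 0.04999). It was not called without Rat3869, Rat3875, Rat3876 or Rat3877 (limma adjusted p up to 0.394 without the last 2), by edgeR, under the 3 other scalings, with no filter or with a prior of 3 reads. Of 2 erythroid genes tested, limma called 0, and 0 passed unadjusted or by limma-voom, edgeR or DESeq2, with Hbb at 74.7, 646, 68.8, 62.9 and 65.7 CPM in the cores and 33.3, 131, 184, 156 and 36.1 in the rims.

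Genes of the response to low oxygen rose: 13 of 22, with 1 lower and 8 not called (median 0.53). Egln3, the oxygen-sensing hydroxylase that hypoxia itself induces, gave 28.7, 91.9, 47.5, 31.5 and 69.6 CPM in the rims and 226, 206, 248, 154 and 201 in the cores (2.07 ± 0.24, limma adjusted p = 0.000396). Bnip3, which directs mitochondria to autophagy, gave 123, 245, 231, 121 and 206 and 406, 458, 513, 367 and 390.1 (1.26 ± 0.14), and Ndrg1 409, 717, 613, 444 and 761.7 and 1222, 1307, 2076, 1051 and 982 (1.16 ± 0.19). All cores exceeded all rims for these 3. The glucose transporter Slc2a1 rose from 219, 519, 362, 197 and 498 to 1024, 807, 1263, 736 and 917 CPM (1.49 ± 0.23). Pdk1, which diverts pyruvate from mitochondria, rose by 0.98, the vasodilator Adm by 1.18 and the carbonic anhydrase Ca9 by 1.12. P4ha2, a collagen hydroxylase that this list shares with collagen processing, fell (-0.62) and was not called without Rat3876 and Rat3877 (limma adjusted p = 0.0846). Vegfa gave 324, 515, 443, 328 and 406 CPM in the rims and 422, 324, 404, 283 and 343 in the cores and was not called (-0.18 ± 0.14, limma adjusted p = 0.353).

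Glycolysis genes rose, 14 of 17, with Hk1 (0.07), Pfkfb4 (0.30) and Aldoc (0.15) not called (median 1.02), and for 14 core and rim did not overlap. Aldolase A, Aldoa, gave 1166, 1869, 1235, 1132 and 1412 CPM in the rims and 3524, 3781, 4143, 3186 and 2911 in the cores (1.38 ± 0.15, limma adjusted p = 0.000279). Slc16a3, which exports lactate, gave 157, 267, 191, 132 and 159.6 and 445, 636, 411, 331 and 379 (1.29 ± 0.09, limma adjusted p = 7.01e-05). Hk2, which traps glucose in the cell, rose from 303 ± 75.6 to 608 ± 127 CPM, Ldha, which makes lactate, from 1245 ± 279 to 2284 ± 238, and the pyruvate kinase Pkm from 1268 ± 223 to 2249 ± 264. The median of the list was between 0.620 and 1.23 in the 5 rats.

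Nuclear genes of the respiratory chain rose, 14 of 16, with 1 lower and 1 not called (median 0.45, and 0.414 to 0.542 in each rat). The ATP synthase subunit Atp5f1b gave 918, 1137, 939, 869 and 1013 CPM in the rims and 1646, 1736, 1819, 1531 and 1687 in the cores (0.79 ± 0.10). The cytochrome oxidase subunit Cox5a gave 114, 143, 123, 110.1 and 134 and 224, 236, 188, 201 and 206 (0.76 ± 0.09) and Uqcrfs1, the iron-sulfur subunit of complex III, rose by 0.79. For all 3 the groups did not overlap. Ndufa4, which a paralog replaces in hypoxia, fell (-0.29) and was not called without any one rat but Rat3869 (limma adjusted p up to 0.247).

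Of 19 genes of G2 and mitosis 10 rose and 9 were not called (median 0.42). Aurkb, a kinase of chromosome segregation, gave 45.6, 48.4, 39.1, 31.9 and 55.2 CPM in the rims and 75.9, 129, 162, 76.2 and 97.2 in the cores (1.26 ± 0.18, limma adjusted p = 0.00123), without overlap. The proliferation antigen Mki67 gave 192, 198, 139, 159.5 and 224 and 284, 187, 307, 372 and 289 (0.65 ± 0.18) and rose in 4 of 5 rats. Mki67 was not called without Rat3867, Rat3875 or Rat3876 (limma adjusted p up to 0.124). Birc5 (0.82) and Ccnb1 (0.77) rose, while Cdk1 (0.17) and Top2a (0.32) were not called. In the fit without Rat3876 and Rat3877 5 genes rose, and without Rat3867 or Rat3875 6. The median was 0.781 and 0.709 in Rat3875 and Rat3876 and 0.0238 in Rat3869.

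Of 20 DNA replication genes 11 rose and 9 were not called (median 0.50). Pcna, the sliding clamp of DNA polymerase, gave 114, 139.8, 112, 131 and 167 CPM in the rims and 223, 247, 235, 233 and 228 in the cores (0.83 ± 0.10), the cores being close to each other. Mcm5, of the replicative helicase, gave 84.1, 79.5, 51.3, 60.1 and 78.4 and 138, 91.9, 145, 144 and 133 (0.89 ± 0.17), and the licensing factor Cdt1 rose by 0.78. Leaving out Rat3876 and Rat3877, 7 genes rose, as without Rat3876 alone, and 6 without Rat3875.

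Sterol synthesis and uptake fell, 9 of 19, and 10 were not called (median -0.33). Hmgcs1, which starts the mevalonate pathway, gave 274, 235, 179, 189 and 209 CPM in the rims and 46.5, 71.7, 68.2, 101 and 49.8 in the cores (-1.73 ± 0.21, limma adjusted p = 0.000514). The synthesis enzyme Cyp51 fell too (-0.92). Neither gene overlapped between the regions.

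Of 21 genes of lysosomes and lipid loading 9 rose, 4 fell and 8 were not called (median 0.27). Plin2, which coats lipid droplets, gave 167, 215, 181, 186 and 301 CPM in the rims and 1001, 1143, 423, 359 and 1019 in the cores (1.79 ± 0.23), with Rat3875 and Rat3876 the lowest cores. The protease Ctsd rose from 879, 1375, 956, 933 and 1207 to 3676, 3780.1, 3015, 2362 and 3689 CPM (1.63 ± 0.13), and the acid lipase Lipa from 173 ± 29.03 to 355 ± 60.8 CPM (1.04). Apoe, the lipid carrier, fell from 7306, 4557, 6426, 6038 and 5746 to 1202, 2323, 838, 1793 and 3861 CPM (-1.77 ± 0.34), with Rat3877 the highest core. Ctsk, a collagen-degrading cathepsin, also fell (-2.63). Ctsl fell (-0.91) in 4 of 5 rats and was not called without Rat3867, Rat3875 or Rat3876 (limma adjusted p up to 0.109).

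Of 12 heat shock genes tested 12 rose (median 0.90), and 10 to 12 did when any 1 rat was left out. Hsp90ab1, a constitutive chaperone, gave 1245, 1379, 1268, 1255 and 1462 CPM in the rims and 2378, 2157, 1979, 1848 and 2021 in the cores (0.65 ± 0.11). Hsph1 gave 129.8, 138, 84.9, 109.9 and 194 and 669, 438, 148, 286 and 387 (1.44 ± 0.20) and the small chaperone Hspb1 56.7, 62.4, 47.7, 49.1 and 74.5 and 181, 204, 54.8, 65.3 and 204 (1.09 ± 0.24). Cores of Rat3875 and Rat3876 were again lowest for Hsph1 and Hspb1. The list of integrated stress and unfolded protein genes had 19 tested members, of which 8 rose, 1 fell and 10 did not pass (median 0.25). Atf3, an early stress factor, gave 20.4, 70.96, 42.8, 38.6 and 103 CPM in the rims and 248, 183, 301, 175 and 218 in the cores (2.21 ± 0.33). The pro-apoptotic factor Ddit3 (1.13) and the pseudokinase Trib3 (1.34) rose, and the endoplasmic reticulum chaperone Hspa5 rose by 0.38, but was not called without Rat3876 and Rat3877 (limma adjusted p = 0.0665). Atf5, a related factor, fell (-1.04) and was not called without Rat3876 or Rat3877 (limma adjusted p up to 0.12).

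Of 15 genes of oxidative stress and iron 9 rose, 2 fell and 4 were not called (median 0.59). Hmox1, which degrades haem, gave 415, 673, 518, 264 and 574 CPM in the rims and 1296, 1379, 725, 659 and 1172 in the cores (1.10 ± 0.15). Slc11a1, the phagosomal metal transporter NRAMP1, rose without overlap from 17.6, 25.2, 23.04, 19.2 and 37.3 to 150.4, 99.7, 103, 57.6 and 85.9 CPM (2.004 ± 0.24), and Nqo1 rose by 1.11. The zinc and iron importer Slc39a14 fell from 267, 228, 371, 287 and 265 to 95.3, 104, 92.7, 76.5 and 72.8 CPM (-1.68 ± 0.13). Mt2A, a metallothionein, fell (-0.78) and lost its call without the pairing by rat and without Rat3875 or Rat3876 (limma adjusted p up to 0.134). Of 18 early response transcription factors 3 rose, 2 fell and 13 were not called (median 0.14), a smaller share called than over all tested genes (37.6%). Jun rose from 165, 211, 182, 198 and 231 to 572, 335, 402, 278 and 465 CPM (1.02 ± 0.17), Klf6 by 0.94 and Jund by 0.86 (expected mouse share 53.8%). Egr3 fell from 32.1, 39.7, 28.4, 19.4 and 23.1 to 12.02, 9.93, 9.06, 7.57 and 6.68 CPM (-1.64 ± 0.16) and Egr1, another zinc finger factor, fell in 4 of 5 rats (-0.59). When Rat3876 and Rat3877 were left out, 5 rose and 1 fell, with Egr1 not called (limma adjusted p = 0.102).

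Of 15 cell death genes 7 rose, 3 fell and 5 were not called (median 0.24), and for 8 core and rim did not overlap. The survival gene Bcl2l1 gave 88.5, 134, 123, 77.7 and 135 CPM in the rims and 354, 305, 321, 236 and 313 in the cores (1.48 ± 0.13, limma adjusted p = 0.000124). Bcl2a1, a survival gene of myeloid cells, rose from 94.4 ± 23.1 to 212 ± 26.3 CPM, and its antagonist Pmaip1 from 42.6 ± 9.20 to 97.1 ± 19.7. The necroptosis effector Mlkl fell from 43.1 ± 4.97 to 23.7 ± 6.31 CPM (-0.90) and the pyroptosis pore Gsdmd from 96.5, 117, 95.4, 74.6 and 93.2 to 48.4, 57.2, 54.5, 55.1 and 50.3 (-0.83 ± 0.11). For both no core reached a rim.

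The same libraries hold the mouse cancer cells, so each rat gene could be set against the mouse gene of the same symbol, rat by rat. For 9740 genes tested in both species the core minus rim difference of the mouse gene was subtracted from that of the rat gene in each rat. Of these, 3488 (35.8%) differed between the species by limma at an adjusted p of 0.05, 1617 (16.6%) with the rat gene above and 1871 (19.2%) below, and the median was -0.00796. In 869 genes both species changed on their own: 416 in the same direction, 206 higher in the rat and lower in the mouse, and 247 the reverse. Of the 9740, 2130 differed without Rat3876 and Rat3877. Counts in lists below are read against the 16.6% above and 19.2% below of all matched genes. Levels of the species are not compared, since their tables were scaled separately.

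**Figure D4:**
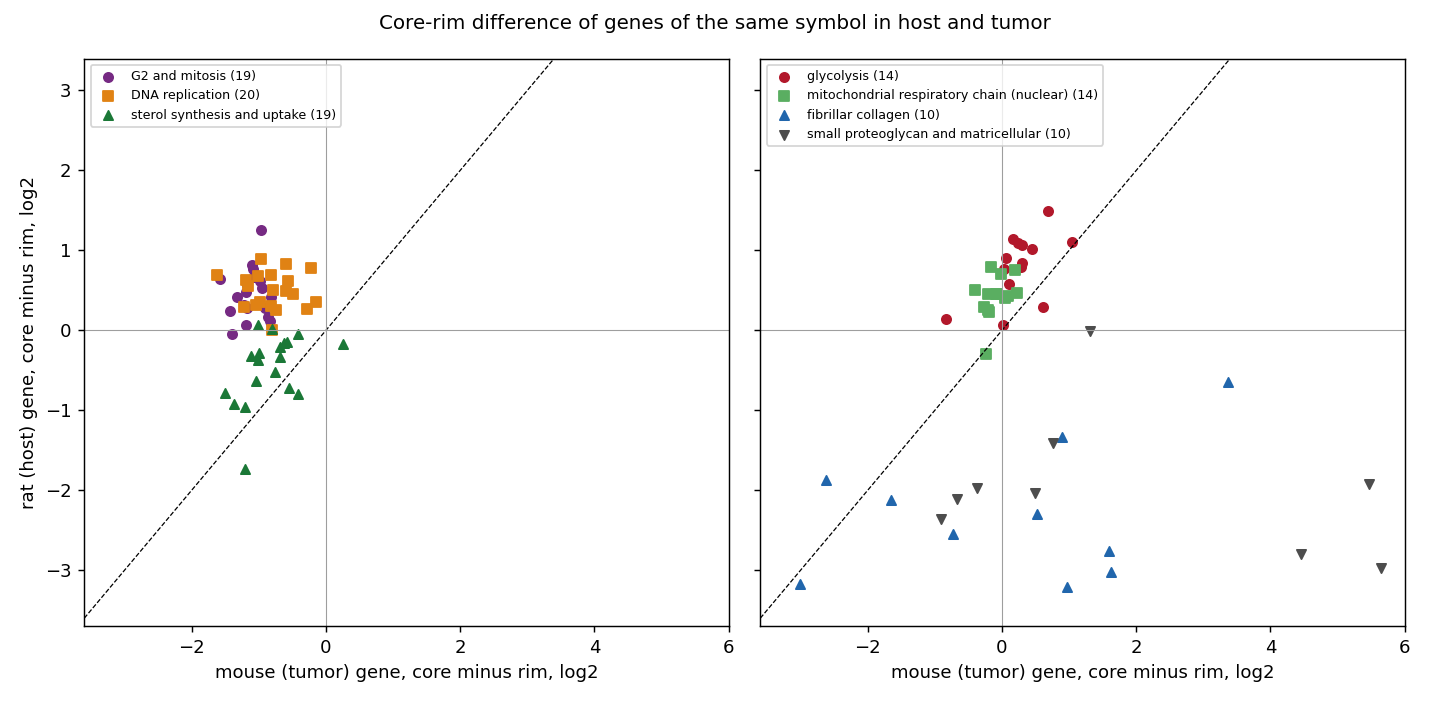
Core minus rim difference (log2) of the rat gene against that of the mouse gene of the same symbol, for the tested genes of 7 lists; the dashed line marks equal differences. The 19 mitosis genes lie left of 0 in the mouse (median -1.10) and mostly above 0 in the rat (median 0.42), and the collagen genes lie below the line apart from Col5a2.

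The rat gene lay above the mouse gene in 19 of 19 genes of G2 and mitosis (medians 0.42 and -1.10) and in 19 of 20 of DNA replication (0.50 and -0.81). Mki67 rose by 0.65 in the rat while the mouse gene went from 453 ± 93.6 to 156 ± 48.4 CPM, a difference of 2.23 ± 0.18 between them (limma adjusted p = 0.000182). For Plk1, a mitotic kinase, the rat value was 0.41, not called, the mouse value -1.33 and the difference 1.74 ± 0.22. Without Rat3876 and Rat3877 the counts were 16 of 19 and 12 of 20. In glycolysis the rat lay above in 11 of 14 (medians 0.87 and 0.27), with Ldha at 0.90 in the rat and 0.05 in the mouse (0.84 ± 0.09), and in 7 without the pairing by rat. In the respiratory chain it lay above in 12 of 14 (0.45 and -0.13), and in 7 without Rat3876 and Rat3877. In heat shock it lay above in 6 of 12 and below in 1, in sterol synthesis above in 7 of 19, and in NF-kB feedback above in 5 of 14, with the rest not called. These 3 counts moved with the samples. Heat shock had 3 above without the pairing by rat or without Rat3876. Sterol synthesis had 3 above without Rat3875, 4 without Rat3876 or Rat3877, and 1 without both. NF-kB feedback had 3 above and 3 below without Rat3869, 3 above without Rat3867 or Rat3876, and 5 above and 2 below without Rat3877.

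In matrix genes the rat gene lay below, in 6 of 10 fibrillar collagens (medians -2.42 and 0.71), 9 of 11 processing genes, 9 of 10 small proteoglycans and matricellular genes and 8 of 10 basement membrane genes, and in none above. It also lay below in 5 of 7 fibroblast genes, 3 of 4 complement genes, 8 of 18 interferon genes (1 above), 8 of 13 proteases and inhibitors (3 above) and 7 of 13 growth factor binding genes (1 above). The interferon count was 4 without the pairing by rat, 2 (with 2 above) without Rat3875, 3 without Rat3867 or Rat3877 and 4 without Rat3876. By either rate of mouse share 6 growth factor binding genes were kept, with 1 below and 2 above. Serpinh1 was -2.59 in the rat and 0.13 in the mouse (-2.72 ± 0.12, limma adjusted p = 3.24e-05). Col5a1 was -3.21 in the rat and 0.97 in the mouse. By either rate of mouse share 7 of the 10 collagens were below 10%, and 3 of these 7 lay below. Of 20 hypoxia genes 4 lay above, 4 below and 12 were not called, and without the pairing by rat 1 above and 3 below. Early response factors (3 above and 6 below of 17), lysosome and lipid genes (4 and 6 of 14), activated macrophage genes (4 and 4 of 13), oxidative stress and iron genes (5 and 3 of 13) and cell death genes (4 and 2 of 12) were mixed too. Early response factors had 2 above and 2 below without Rat3867, without Rat3875, or without both Rat3876 and Rat3877. Of 18 stress response genes 2 lay below, or 5 without Rat3876 and Rat3877, of 11 mammary epithelial genes 1 lay above, or 5 without those rats, and the remaining lists had 8 or fewer matched genes. One of the 4 below was Vegfa, at -0.18 in the rat and 0.93 in the mouse (-1.10 ± 0.18, limma adjusted p = 0.00222).

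The 6 largest positive differences were in Acap1, Mmp9, Lat2, Samsn1, Plau and Gatm. Acap1, an adaptor of vesicle traffic, rose in the rat from 18.4, 41.1, 23.5, 18.3 and 36.9 to 147, 189, 182, 105 and 92.2 CPM (2.40), while the mouse gene fell from 75.3 ± 20.98 to 10.8 ± 2.93 CPM (-2.80), a difference of 5.20 ± 0.33. Lat2, a signalling adaptor of myeloid cells, gave 28.7, 28.2, 29.5, 27.8 and 34.6 CPM in the rat rims and between 90.3 and 102 in the 5 cores, so the cores were very even (1.70 ± 0.09, limma adjusted p = 5.99e-05), against -2.38 in the mouse. Samsn1, an adaptor of blood cells, rose by 1.32 in the rat (-2.48 in the mouse). Plau, the urokinase plasminogen activator, rose from 448 ± 136 to 1311 ± 265 CPM in the rat and fell from 221 ± 88.8 to 57.2 ± 16.1 in the mouse. Gatm, an enzyme of creatine synthesis, was 0.92 in the rat and -2.30 in the mouse. For Mmp9 the rat gene was not called (0.43), and the difference of 4.28 came with a mouse value of -3.85. By the larger of the rates, its expected mouse share reached 31.7% in the core or rim.

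The 6 largest negative differences were in C4b (-10.01), Postn (-8.62), Ccn5 (-7.93), Serpine2 (-7.59), Dcn (-7.39) and Masp1 (-6.36). Each fell in the rat and rose in the mouse. Serpine2, an inhibitor of thrombin and plasminogen activators, gave 764, 894, 715, 493 and 277 CPM in the rat rims and 11.3, 71.7, 67.9, 109 and 17.3 in the cores (-3.86 ± 0.44), while the mouse gene went from 17.01 ± 13.6 to 173 ± 75.6 CPM. Ccn5, a matricellular protein, fell in the rat from 56.1 ± 51.5 to 1.69 ± 0.926 CPM and rose in the mouse from 3.01 ± 1.15 to 29.9 ± 12.8 CPM. The expected mouse share of rat core reads by the total rate was 1.92% for Postn, 2.15% for Dcn and 4.05% for Serpine2, and 40.8% for Ccn5. By the same-symbol rate it was 789% for Postn, more than the reads counted.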

How the data were processed

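RNA from dissected tumor cores and rims was selected for poly(A), per the labels' protocols. Per the submitters' processing notes the tools were Trim Galore, STAR, featureCounts and limma and the builds GRCm38 and Rnor_6.0, with no versions. The way reads were divided between species and the strand setting are both not given in the sources used here. Values deposited by the authors are a signal in CPM on the scale limma-voom uses: a value is the read count plus 0.5, multiplied by 1 factor for its library, which held for 100% of values within 0.01 read. Read counts were recovered from this. The tables deposited by the authors for the 4T1 cells and normal glands hold raw counts. Columns or rows not mapped to a sample numbered 0.

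Rat genes reaching 1 CPM in 5 or more of the 10 libraries were tested with limma 3.58.1 (R 4.3.3) on log2 values, with a trend in the prior variance and rat as a block, since the labels name the animal. Deviations of core and rim of the same rat from their region means correlated at r = 0.0277, 0.0333, 0.0925, 0.0887 and 0.339 over genes. Only the core of Rat3877 matched its own rim best. The other cores matched the rim of another rat more closely, at r = 0.0284, 0.0806, 0.107 and 0.175. Benjamini-Hochberg adjustment ran over all tested genes. The difference between species was taken within each rat and tested the same way. Median SD of log2 CPM was 0.3068 over cores and 0.2456 over rims. No 2 libraries of a region agreed within sampling noise (lowest chi-square per degree of freedom 5.7). The expected mouse share scales a gene's rat reads in the 4T1 library (213086 rat reads in all) by mouse reads, either in total or of the same symbol, the latter where the 4T1 library held at least 50 such mouse reads. Scripts were tested on simulated data. Alternatives were limma-voom, edgeR 4.0.16 and DESeq2 1.42.0 on recovered reads, other scalings, filters and priors, no block, and libraries or genes left out.

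Genes were named by rule: the 12 largest rises and falls of at least 2 mean log2 CPM alike in 5 rats, per list the most abundant, the 3 largest and any opposing called members, the 10 genes with the highest CPM per region, and the 6 largest species differences on each side. Not called members, and the called genes Adm, C1r, C1s, Ca9, Ccl4, Cpa3, Ctsd, Cxcl10, Cxcl12, Cxcr2, Hk2, Ldha, Lipa, Pdk1, Pkm, Prox1, Prrx1, Serping1, Sfrp1 and Trem1, were added after their values were seen. Members and lists were chosen with earlier results of these data known. The labels do not say how the sequenced pieces were taken within a region, and 1 piece stands for each region of a rat. No rat sequence or coordinates were used here. Some members that the naming rule picks are not reported here.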

Additional observations from a re-analysis of the deposited data

Results flagged for a closer look

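In 12 of the 384 groups of 5 libraries looked at, 1 library stood far from the other 4, where chance alone gives about 1 in 20. The rim of Rat3876 held 0.49 CPM of Nos2, against 2.28 to 2.56 in the other rims, and the core of Rat3877 held 0.126 CPM of Mcpt1l1, against 1.09 to 1.43. The Rat3867 rim was low for Lyz2, with 1440 CPM against 2580 to 3050, Ctsl was low in the rim of Rat3869, at 979 against 1340 to 1500, and Lat2 was high in the rim of Rat3877, at 34.6 against 27.8 to 29.5. Among cores, that of Rat3869 was high for Sele, at 3.94 CPM against 0.772 to 1.11, and low for Mbp, at 11.5 against 18.9 to 20.8, and Mcm5, at 91.9 against 133 to 145. The core of Rat3875 was low for Plvap, at 47.5 CPM against 70.6 to 78.8, and high for Ccnb1, at 80.0 against 54.4 to 59.8. Itgax stood at 723 CPM in the core of Rat3867 against 558 to 569, and Cyp51 at 112 in the core of Rat3876 against 79.9 to 87.7.

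The core minus rim difference of 12 named genes differed between the species by limma. The rat gene lay above the mouse gene by 5.20 for Acap1, 4.28 for Mmp9, 4.09 for Lat2, 3.80 for Samsn1, 3.47 for Plau and 3.23 for Gatm on the log2 scale. It lay below for C4b (-10.0), Postn (-8.62), Ccn5 (-7.93), Serpine2 (-7.59), Dcn (-7.39) and Masp1 (-6.36).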

How the results depend on the processing

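Leaving out Rat3876 and Rat3877 lowered the genes called between core and rim from 5092 to 3351 and those higher in the core from 2373 to 1414. It also lowered the genes that differed between species to 2130 and those with the rat above to 863. Without genes above 10% expected mouse share by either rate the rat lay above in 1503 and below in 1235, against 1617 and 1871 with them, total-count scaling gave 1882 and 1646, and at least 10 CPM 1502 and 1405. For the species difference, leaving out 2 rats or those genes was chosen after seeing the data, and fewer samples or genes enter each. Leaving out 1 rat gave 3794 to 4734 called genes, 1674 to 2200 higher and 2120 to 2534 lower, with the lowest count without Rat3867. For the species difference it gave 2486 to 3450, with 1099 to 1640 above and 1387 to 1810 below. Without the replicate block 5049 and 3173 genes were called. Counts by limma-voom (5239), edgeR (5019) and DESeq2 (4364) were within 1.5 times the main count. No host gene called between core and rim both as reported and under an alternative changed direction. As those fits share libraries and only genes called in both were compared, this could hardly come out otherwise. Of the 5092 genes, 3158 stayed called without Rat3876 and Rat3877. Medians of gene groups did turn sign: those of mast cell, complement, growth factor binding, vessel specialisation, adipocyte and skeletal muscle genes as given above, that of mammary epithelial genes to 0.364 with at least 10 CPM (2 genes), and that of early response factors to -0.0258 without Rat3867. Those of complement, growth factor binding and adipocyte genes turned under the limit on expected mouse share, and that of vessel specialisation under it and with at least 10 CPM. That limit removes genes with few core reads, and so falls, more readily than rises, in the species difference too. These turns therefore do not show that the removed genes did not fall. The difference of Mmp9, not called in the rat, ranged from -0.459 to 0.752. Rat reads were fewer in the core, so genes near 1 CPM there rest on few reads, and those with a high expected mouse share have no measured floor of their own.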
